A study of Mus musculus with 35 samples.

Results

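The genes described here are the collagen chains and the proteins that modify, fold, trim, cross-link or bind collagen, 57 of the 54416 gene IDs measured in mouse gastrocnemius. They are the 44 protein-coding genes with the symbol of a collagen chain in the GRCm38 annotation, together with 13 processing genes, P4ha1, P4ha2, Plod1, Plod2, Plod3, Lox, Loxl1, Loxl2, Serpinh1, Sparc, Bmp1, Pcolce and Adamts2. The values were TPM, transcript abundances corrected for transcript length and given as parts of a fixed total. A gene was tested where it had at least 1 TPM in at least 5 of the 35 libraries, which left 34 of the 57 (21 chains and all 13 processing genes) among 12399 genes tested. The other 23 chains were low throughout, with Col8a1 the highest at a mean of 0.593 TPM and 10 of them below 0.1 TPM. Just inside the threshold was Plod2, which reached it in 7 libraries, and just outside were Col6a6 and Col26a1, which reached it in 2. All 7 libraries of Plod2 were from 3 months. Adamts2 reached it in 17 and Col12a1 in 15, mostly of 3 months. These members thus entered the tests through the age at which they were higher, and their falls with age are not independent of the threshold.

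Gastrocnemius, a calf muscle rich in fast fibres, was taken from male mice at 3 and 24 months of age and sequenced as bulk tissue from total RNA. Wild type (WT) was set against a knockout of PGC-1α (mKO) and a PGC-1α transgenic line (mTG), with 6 libraries in each of the 6 combinations of genotype and age except mKO at 3 months, which had 5. PGC-1α, the product of Ppargc1a, coactivates transcription factors and is known to raise mitochondrial genes and vessel density in muscle. No treatment is given in the labels, and the promoter of the transgene, the driver of the deletion and the strain are not given in the sources used here. The data columns carry short names, and their groups were inferred from them, with SO read as 24 months and MCK as mTG. Ppargc1a was at a median of 7.0 scaled TPM in WT at 3 months (4.83 to 15.2), at 110 in mTG (96.1 to 112), and at 4.45 to 10.46 in the 5 mKO libraries of that age. At 24 months its medians were 4.17 in WT (3.79 to 4.70), 92.0 in mTG (64.0 to 106.5) and 7.53 in mKO (6.28 to 10.7). Ppargc1a mRNA was thus raised in every mTG library, while the libraries labelled mKO overlapped WT at 3 months and all lay above WT at 24 months. A value per gene does not show the loss of part of a transcript, so it checks nothing about the deletion.

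Scaled TPM are TPM after each column was divided by the median of its ratios to the typical library, because nuclear rRNA and mitochondrial mRNA take unequal shares of the fixed total. The rRNA share averaged 0.259% in WT, 0.231% in mKO and 0.119% in mTG at 3 months, against 10.2%, 5.25% and 0.748% at 24 months. Mitochondrial mRNA took 26.6% in WT, 22.5% in mKO and 42.8% in mTG at 3 months, and 22.4%, 20.3% and 39.6% at 24 months. Correlations between libraries within groups lay between 0.947 and 0.989, and no depth can be read from TPM. Without scaling, the median of all genes shifts by -0.58 on the log2 scale in mTG against WT at 3 months, by -0.38 at 24 months, by 0.28 in mKO against WT at 24 months and by -0.24 with age in WT. A genotype difference in level is thus relative to the typical gene, and counts on unscaled TPM stand beside it. An earlier look at these data found 1 mKO library of 3 months and 1 mTG library of 24 months apart from their groups, and counts without both are given with the first results. In bulk muscle, fewer cells of a type and less RNA per cell cannot be told apart.

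Collagens are built as helical trimers of chains whose prolines and lysines are hydroxylated in the endoplasmic reticulum, where a dedicated chaperone holds them, before propeptides are cut off outside the cell and lysyl oxidases cross-link the fibres. Types I, III and V form the fibrils of the endomysium, perimysium and tendon, type IV forms the sheet of the basement membrane around fibres and capillaries, and type VI forms beaded microfilaments that tie that membrane to the fibrils. In adult muscle the fibrillar chains come mostly from fibroblasts, and much of type IV from endothelium and muscle cells. Adult tissue turns collagen over slowly, so mRNA and the amount of deposited protein are separate quantities, and the latter was not measured here.

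With age, collagen mRNA was lower in every genotype. Of the 34 members tested, 21 fell and 0 rose between 3 and 24 months in WT, 21 fell and 0 rose in mKO, and 24 fell and 1 rose in mTG (limma, adjusted p under 0.05). Among all genes tested, 11.3% fell and 11.4% rose in WT, 4.96% fell and 6.07% rose in mKO, and 7.46% fell and 6.7% rose in mTG. At an unadjusted p under 0.05 the members that were higher numbered 0 in WT, 1 in mKO and 2 in mTG. The counts of members that fell include Plod2, Adamts2 and Col12a1, which passed the threshold only or mostly through libraries of 3 months. These 3 comparisons share no library, and 18 members fell in all of them, namely Col1a1, Col1a2, Col3a1, Col5a1, Col5a2, Col5a3, Col4a1, Col4a2, Col6a1, Col6a2, Col6a3, Col15a1, Col18a1, Serpinh1, Plod1, Loxl2, Adamts2 and Sparc. The median member changed by -0.37 (log2) in WT, -0.40 in mKO and -0.42 in mTG, beside medians of 0.00, -0.01 and 0.00 over all genes. Every library at 24 months lay below every library at 3 months for 18 members in WT, 16 in mKO and 19 in mTG, a pattern that 6.24%, 3.06% and 3.45% of all genes showed. On unscaled TPM 28 members fell in WT, 19 in mKO and 19 in mTG, beside 43.7%, 3.49% and 2.83% of all genes. Without the 2 libraries that stood apart, 22, 22 and 26 fell, beside 15.3%, 5.38% and 7.02%.

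Library composition moved with age as well. The rRNA shares of the ages did not overlap in any genotype, and age and whatever set that share cannot be told apart. With the log2 rRNA share as a covariate, 1 member fell in WT, 5 in mKO and 17 in mTG, the genotype whose rRNA share stayed lowest at 24 months, beside 0.0242%, 0.0726% and 0.653% of all genes. The estimate for Col1a1 was -1.70 in WT (limma adjusted p = 0.163), -1.65 in mKO (0.0212) and -1.87 in mTG (4.52e-06), and that for Sparc -0.79, -0.83 and -1.31 (0.454, 0.136 and 4.52e-06), while the median SE over members rose from 0.1 to 0.303 in WT, from 0.105 to 0.252 in mKO and from 0.1 to 0.169 in mTG. Changes with age also ran with transcript length over all genes, with a Spearman rho of -0.25 in WT, 0.28 in mKO and -0.38 in mTG across 10870 genes, which are not independent replicates. After that trend was removed, 20 members fell in WT, 22 in mKO and 19 in mTG, beside 12.3%, 6.11% and 7.27% of all genes.

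**Figure D1:**
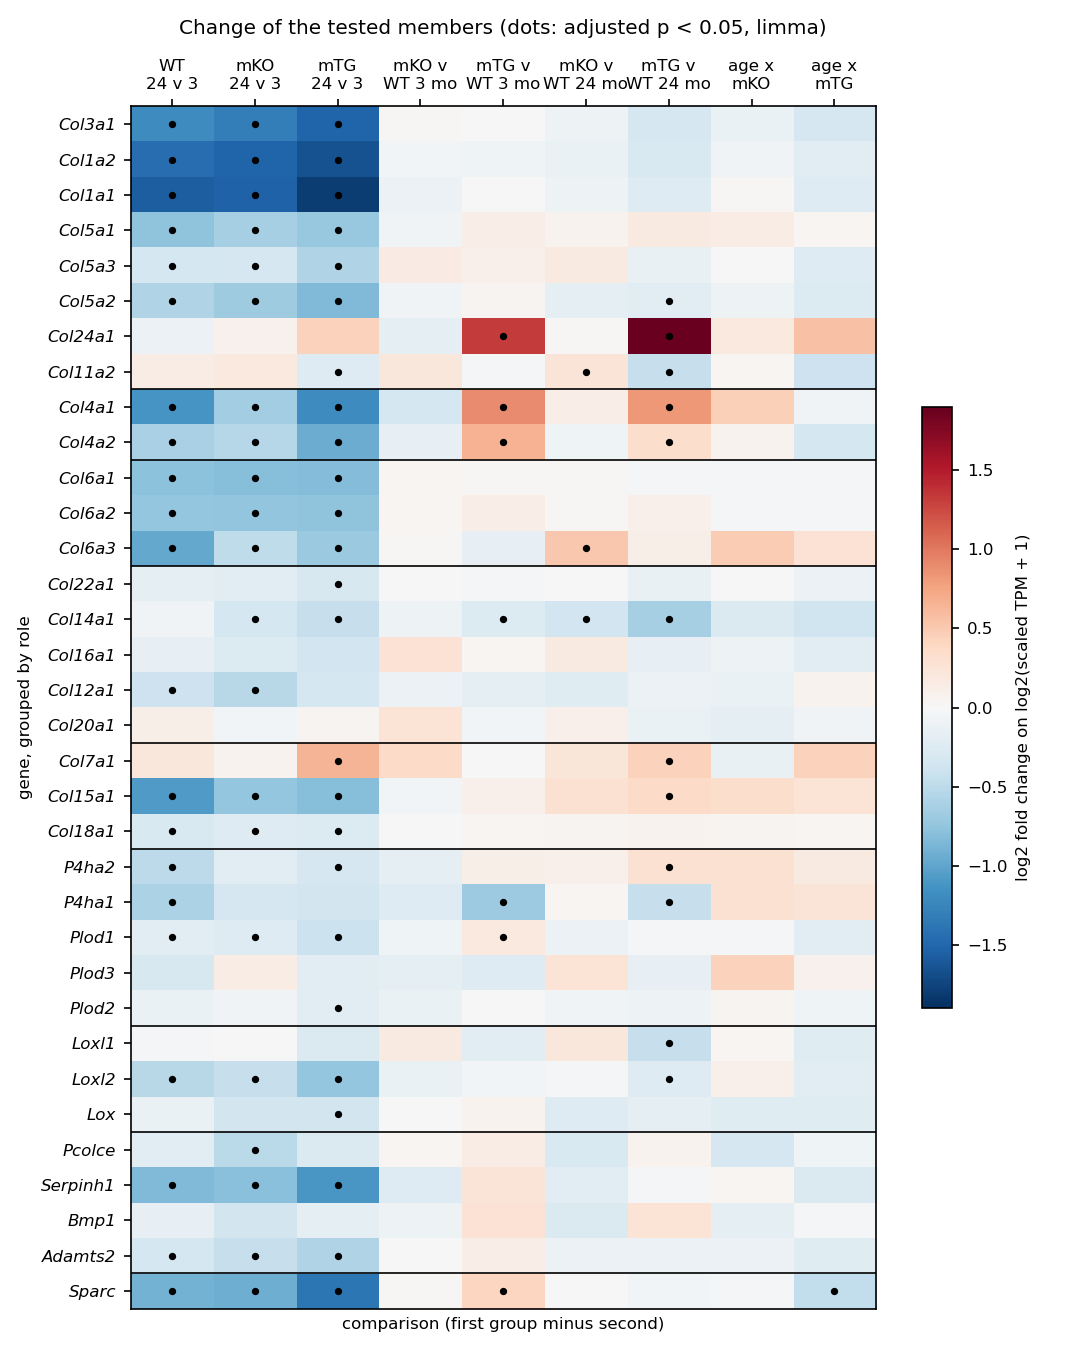
Log2 fold change (colour, on log2(scaled TPM + 1)) of the 34 tested genes (rows, grouped by role) in the 9 comparisons (columns), with dots where the limma adjusted p is under 0.05. The 3 ageing columns on the left are blue for most chains, down to -1.80 for Col1a1 in mTG, while the genotype columns are mostly pale apart from Col24a1, Col4a1 and Col4a2 in mTG.

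The largest falls of any member were those of the type I and III chains. Of the 8 fibrillar chains tested, 6 fell in WT, 6 in mKO and 7 in mTG, and Col1a1, Col1a2 and Col3a1 led in each genotype. Col1a1 (ENSMUSG00000001506, GRCm38 chromosome 11, 94936224 to 94953042, plus strand), the major chain of type I collagen, was at a median of 13.1 scaled TPM in WT at 3 months (10.6 to 20.7), at 13.7 in mTG (10.97 to 18.04), and at 10.2, 12.2, 12.5, 14.1 and 15.9 in the 5 mKO libraries. At 24 months it was at 3.88 in WT (3.40 to 5.84), 3.65 in mKO (3.27 to 4.47) and 3.25 in mTG (2.53 to 4.28). No library at 24 months reached any library at 3 months. On log2(scaled TPM + 1), a scale that understates the change of low genes, the change was -1.57 ± 0.13 (SE) in WT (adjusted p = 1.17e-10), -1.54 ± 0.14 in mKO (1.01e-09) and -1.80 ± 0.13 in mTG (1.48e-11).

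Col1a2, the partner chain of the type I trimer (chromosome 6, 4504814 to 4541544, plus strand), went from a median of 25.9 (21.6 to 38.5) to 9.03 scaled TPM (7.25 to 13.2) in WT and from 24.8 (19.9 to 33.7) to 7.997 (4.99 to 9.23) in mTG. Its 5 mKO libraries at 3 months held 18.1, 24.4, 25.8, 30.5 and 33.7, against 6.35 to 10.6 at 24 months, and no library at 24 months reached one at 3 months. Col1a2 changed by -1.45 ± 0.15 in WT, -1.52 ± 0.16 in mKO and -1.66 ± 0.15 in mTG. Col3a1, whose homotrimers form the fine reticular fibres (ENSMUSG00000026043, chromosome 1, 45311538 to 45349706, plus strand), was the most abundant chain per length in WT and mKO at both ages. Its WT libraries ran from 33.1 to 58.2 scaled TPM at 3 months (median 52.4) and from 15.5 to 28.9 at 24 months (19.8). Its mTG libraries ran from 43.1 to 49.9 (47.8) and from 13.7 to 20.5 (15.6). The 5 mKO libraries at 3 months held 40.3, 40.3, 45.2, 54.1 and 63.4, against 14.9 to 20.7 at 24 months (19.1). The ages did not overlap in any genotype, and Col3a1 changed by -1.20 ± 0.14 in WT, -1.32 ± 0.15 in mKO and -1.52 ± 0.14 in mTG (adjusted p = 1.16e-07, 8.07e-08 and 3.5e-09).

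The type V chains, which start and set the width of type I fibrils, fell less. Col5a1 changed by -0.77 in WT, -0.63 in mKO and -0.73 in mTG, Col5a2 by -0.57, -0.67 and -0.84, and Col5a3 by -0.33, -0.33 and -0.58. The call of Col5a3 in mKO was lost for 6 of the 35 libraries when each was left out in turn. Because the ratio of 2 transcripts within a library does not depend on how its column was scaled, Col5a2 was set against Col1a1. The ratio rose from 0.251 to 0.504 (geometric means) in WT, from 0.256 to 0.451 in mKO and from 0.269 to 0.508 in mTG, with no overlap between ages in any genotype (2-sided exact permutation, p = 0.00216, the smallest that these group sizes allow, adjusted p = 0.00725 over 77 tests of 11 ratios). The mix of fibrillar transcripts thus differed between ages, with relatively more of the type V chain.

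Within type I itself, Col1a1 lost slightly more than Col1a2 in WT. Their ratio went from 0.520 to 0.446 in WT with no overlap (difference -0.22 on log2, adjusted p = 0.00725, exact permutation) and from 0.549 to 0.453 in mTG (-0.28, 0.0365). In mKO it went from 0.496 to 0.453 with overlapping libraries (-0.13, 0.336). The mTG call was lost for 6 of 12 libraries when each was left out in turn.

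Col24a1 and Col11a2, minor fibrillar chains known mainly from bone and cartilage, did not follow the others. Col24a1 was near 1 scaled TPM outside mTG, with a median of 0.930 in WT at 3 months (0.799 to 1.08) and 0.636 at 24 months (0.346 to 1.95). In mTG it was at 3.61 at 3 months (2.9 to 5.44) and 5.69 at 24 months (2.99 to 9.37), so every mTG library lay above every WT library of its age. The 5 mKO libraries at 3 months held 0.341, 0.534, 0.814, 0.927 and 1.08, and those at 24 months 0.566 to 1.08. Against WT, mTG differed by 1.33 ± 0.17 at 3 months and 1.88 ± 0.17 at 24 months (adjusted p = 9.3e-08 and 6.98e-11, and 0.79 and 1.44 without scaling). The change with age was not called in WT (-0.12, adjusted p = 0.674), mKO (0.08, 0.844) or mTG (0.44, 0.0781). Col11a2 fell in mTG only (-0.25, limma adjusted p = 0.0451), a call lost for 13 of 35 libraries left out in turn. At its mean of 1.106 TPM, log2(scaled TPM + 1) understates change, so this value does not show a small change in TPM. The cartilage markers Acan, Sox9, Matn1 and Hapln1 were all below the test threshold and summed to at most 0.552 scaled TPM in any library, with Matn1 at 0 in every one.

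The stretches of 250 bases before the RefSeq start of 4 members (GRCm38.p6, read 5′ to 3′ on the strand of the gene) are shown because these members went apart. Col3a1 and Serpinh1 fell in all genotypes. Col7a1 and Col24a1 were not called lower with age in any genotype and were higher in mTG than in WT at 24 months on scaled TPM. Capitals mark matches on either strand to the CAAT box (CCAAT), to the TATA box (TATAAA), to the GC box (GGGCGG) and to AAGGTCA, which is the motif of orphan nuclear receptors that PGC-1α is known to coactivate. The windows are chr1:45311288-45311537 (plus strand) for Col3a1, chr7:99353240-99353489 (minus strand) for Serpinh1, chr9:108953336-108953585 (plus strand) for Col7a1 and chr3:145292222-145292471 (plus strand) for Col24a1.
Col3a1: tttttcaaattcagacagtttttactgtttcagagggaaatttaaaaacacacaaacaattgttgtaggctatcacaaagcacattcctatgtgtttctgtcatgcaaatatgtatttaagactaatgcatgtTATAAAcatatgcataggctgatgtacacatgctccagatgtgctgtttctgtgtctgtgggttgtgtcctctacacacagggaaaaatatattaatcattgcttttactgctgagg
Serpinh1: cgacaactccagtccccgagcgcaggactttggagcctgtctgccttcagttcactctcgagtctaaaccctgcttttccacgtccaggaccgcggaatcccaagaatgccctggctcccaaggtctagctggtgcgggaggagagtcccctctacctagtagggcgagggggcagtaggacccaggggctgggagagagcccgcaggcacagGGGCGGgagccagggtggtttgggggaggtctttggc
Col7a1: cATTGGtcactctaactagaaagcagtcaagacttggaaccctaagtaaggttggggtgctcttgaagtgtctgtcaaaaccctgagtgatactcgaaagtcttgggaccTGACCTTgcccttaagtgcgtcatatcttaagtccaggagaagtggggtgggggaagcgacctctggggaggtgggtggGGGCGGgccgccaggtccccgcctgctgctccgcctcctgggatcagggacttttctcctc
Col24a1: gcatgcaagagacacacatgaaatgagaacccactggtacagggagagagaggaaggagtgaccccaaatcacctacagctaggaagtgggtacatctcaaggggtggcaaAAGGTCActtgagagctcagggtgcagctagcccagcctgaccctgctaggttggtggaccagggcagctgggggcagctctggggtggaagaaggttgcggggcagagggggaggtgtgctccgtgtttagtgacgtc

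Of the 34 tested members, 24 had a window in the RefSeq table. CCAAT was found in 8 of them and in 33.8% of all 32851 windows, TATAAA in 3 and in 12.4%, GGGCGG in 15 and in 32.7%, and the cAMP response element TGACGTCA in 0 and in 1.55%. AAGGTCA was found in 2, Col7a1 and Col24a1, and in 4.08% of all windows. The windows of Col4a1, Col4a2, Sparc, Plod1, Col15a1 and P4ha2, also called higher in mTG at either age on scaled TPM, held none. The windows printed above were chosen and do not stand for all members called higher in mTG. A match describes the letters of the window and shows neither binding nor a cause.

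Type IV collagen, the basement membrane network, fell with age in every genotype, from a level that on scaled TPM was higher in mTG than in WT. Col4a1 and Col4a2, whose products assemble into 1 trimer, are neighbours on chromosome 8 read in opposite directions (Col4a1 at 11198423 to 11312826 on the minus strand, Col4a2 at 11312805 to 11449287 on the plus strand), with starts 21 bases apart. Col4a1 was at a median of 21.8 scaled TPM in WT at 3 months (18.1 to 24.4) and 9.74 at 24 months (7.64 to 10.4). In mTG it was at 41.7 (36.1 to 47.6) and 18.2 (12.4 to 24.0). In mKO the 5 libraries at 3 months held 11.2, 16.7, 17.7, 19.9 and 21.2, and those at 24 months 8.33 to 12.1 (median 10.4). All mTG libraries were above all WT libraries at each age, and the age groups were apart in WT and mTG but overlapped in mKO.

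Col4a1 changed with age by -1.12 ± 0.13 in WT (adjusted p = 1.4e-07), -0.66 ± 0.14 in mKO (0.00132) and -1.19 ± 0.13 in mTG (1.11e-07). Col4a2 changed by -0.62 ± 0.08, -0.54 ± 0.08 and -0.95 ± 0.08. Its medians went from 9.99 (9.53 to 10.9) to 6.17 scaled TPM (5.76 to 6.96) in WT and from 16.8 (15.1 to 17.4) to 8.51 (6.81 to 9.17) in mTG. Levels of Col4a2 in mKO were 6.47, 9.26, 9.38, 9.84 and 10.35 at 3 months and 5.21 to 6.35 at 24 months, so the ages were apart in every genotype. The difference in age effect from WT was not called for Col4a1 in mKO (0.45, adjusted p = 0.15) or for Col4a2 in mTG (-0.33, adjusted p = 0.0846). The first was called on unscaled TPM (0.75, adjusted p = 0.0222) and the second with the length trend removed (-0.28, adjusted p = 0.0351). The ratio of Col4a1 to Col4a2 fell from 2.14 to 1.51 in WT with no overlap (-0.50, exact permutation, adjusted p = 0.00725). It went from 1.89 to 1.76 in mKO (-0.10, 0.299) and from 2.47 to 2.13 in mTG (-0.21, 0.199), differences within the overlap of the libraries.

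Against WT, mTG held more of both type IV chains relative to the median gene. Col4a1 differed by 0.89 ± 0.13 at 3 months and 0.82 ± 0.13 at 24 months (adjusted p = 1.13e-06 and 4.3e-06), and on unscaled TPM by 0.11 and 0.32, neither called (adjusted p = 0.527 and 0.0784). Col4a2 differed by 0.67 and 0.34 on scaled TPM and reversed to -0.08 and -0.12 on unscaled TPM, neither called there. The comparison that needs no scaling, Col4a1 against Col1a1 in the same library, rose from 1.55 in WT to 2.95 in mTG at 3 months and from 2.30 to 5.195 at 24 months, with no overlap (0.93 and 1.17 on log2, exact permutation, adjusted p = 0.00725 for each). With age the same ratio rose in each genotype, by 0.57 in WT (exact permutation, adjusted p = 0.0179), 1.04 in mKO and 0.82 in mTG (0.00725 for each), so type IV fell less than type I in all of them.

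Endothelial markers differed in several of the same comparisons as type IV. Of 7 tested (Pecam1, Cdh5, Kdr, Tie1, Tek, Eng and Flt1), 6 were higher in mTG than in WT at each age, 6 fell with age in WT, 2 in mKO and 4 in mTG. Of all genes 22.3% and 24% were higher in mTG, and 11.3%, 4.96% and 7.46% fell with age. On unscaled TPM 0 of the 7 were higher and 2 lower in mTG at 3 months, and 1 was higher and 1 lower at 24 months, so the mTG direction rests on the scaling. With age 7, 1 and 2 of them fell on unscaled TPM in WT, mKO and mTG, beside 43.7%, 3.49% and 2.83% of all genes. In mKO against WT 3 of the 7 were lower at 3 months and 2 at 24 months (0 lower at each age without scaling), where 0 type IV chains were called on scaled TPM. Their summed level was 65.0 to 77.8 scaled TPM in WT and 95.0 to 111.8 in mTG at 3 months, and 48.8 to 53.1 and 62.9 to 97.6 at 24 months. Of 6 pericyte and smooth muscle markers, 3 were higher and 1 lower in mTG at 3 months and 4 were higher at 24 months, against 0 higher and 5 lower, and 0 higher and 1 lower, without scaling. With age 4 of these 6 fell in WT, 0 in mKO and 2 in mTG (5, 0 and 1 without scaling). The part of these cells in the type IV levels was not tested. Set against Pecam1 within each library, in ratios chosen after the values were seen, Col4a1 was 0.33 higher in mTG at 3 months and 0.29 at 24 months (exact permutation, adjusted p = 0.0455 and 0.0848 over 14 tests). Against Cdh5 it was 0.12 and 0.18 higher (0.424 and 0.303). With age Col4a1 fell against both genes in every genotype, by 0.86, 0.50 and 0.89 against Pecam1 and by 0.78, 0.53 and 0.71 against Cdh5 in WT, mKO and mTG (exact permutation, adjusted p = 0.00606, or 0.0101 for Cdh5 in mKO).

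**Figure D2:**
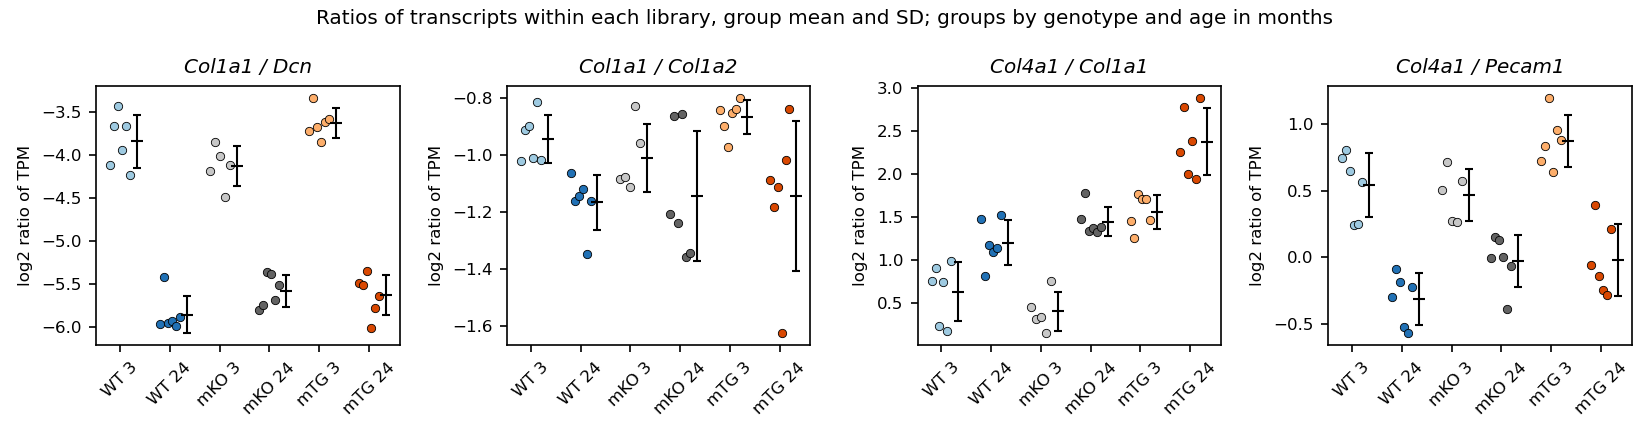
Log2 ratios of transcripts within each library (points) with group mean and SD (bars) for Col1a1 to Dcn, Col1a1 to Col1a2, Col4a1 to Col1a1 and Col4a1 to Pecam1, by genotype and age in months. The ages stand apart in all genotypes for Col1a1 to Dcn, and mTG stands above WT at both ages for Col4a1 to Col1a1.

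The 3 tested chains of type VI collagen fell in every genotype, Col6a1 and Col6a2 by like amounts and Col6a3 by amounts from -0.49 to -0.97. Col6a1 went from a median of 12.5 scaled TPM (10.3 to 13.3) to 6.42 (5.82 to 7.43) in WT and from 11.98 (10.96 to 13.2) to 6.30 (5.67 to 7.07) in mTG. In mKO the 5 libraries at 3 months held 11.7, 11.99, 12.03, 12.3 and 13.4, against 6.10 to 7.08 at 24 months. The age groups lay apart throughout, with changes of -0.79 ± 0.07 in WT, -0.80 ± 0.07 in mKO and -0.82 ± 0.07 in mTG (adjusted p = 1.27e-10, 5.71e-10 and 1.36e-10). Differences in this age effect from WT were -0.02 in mKO (95% interval -0.21 to 0.18) and -0.03 in mTG (-0.22 to 0.16).

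Col6a2 went from a median of 11.6 (9.42 to 12.4) to 6.23 scaled TPM (5.64 to 7.26) in WT and from 12.1 (10.65 to 14.2) to 6.74 (6.14 to 7.53) in mTG, and in mKO from 10.49 to 13.3 over the 5 libraries to 5.75 to 7.05. It changed by -0.73, -0.76 and -0.77. Col6a3, the largest chain of the type VI microfilament, changed by -0.97 in WT, -0.49 in mKO and -0.70 in mTG. At 3 months Col6a3 lay at 8.77 to 12.8 scaled TPM in WT, 10.08 to 12.3 in mKO and 8.37 to 11.4 in mTG, which overlap. At 24 months its level was 6.30 to 8.71 scaled TPM in mKO (median 8.06) and 4.04 to 6.17 in WT (4.97), without overlap, a difference of 0.51 ± 0.10 (adjusted p = 0.000372, and 0.85 unscaled). Against Col1a1, Col6a1 rose with age from 0.855 to 1.59 in WT, from 0.958 to 1.75 in mKO and from 0.872 to 1.93 in mTG (adjusted p = 0.00725 for each, exact permutation), so in 24-month muscle the type VI transcript was the more abundant of the pair.

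Fibril-associated chains sit on the surface of fibrils and have interrupted helices. Those tested had means of 0.768 to 1.644 TPM, where log2(scaled TPM + 1) understates change, so their small values do not show small changes in TPM. Of the 5 tested, 1 fell in WT, 2 in mKO and 2 in mTG. Col12a1 fell in WT (-0.40) and mKO (-0.52), with -0.33 in mTG (adjusted p = 0.0526). Col14a1 fell in mKO (-0.34) and mTG (-0.44), with -0.06 in WT (0.648), and was lower than WT in mTG at both ages (-0.25 and -0.63) and in mKO at 24 months (-0.36). At 3 months Col14a1 had medians of 1.77 scaled TPM in WT (1.33 to 1.95), 1.52 in mKO (1.15 to 1.73) and 1.254 in mTG (1.09 to 1.44). Its medians at 24 months were 1.39 scaled TPM in WT (1.18 to 2.43), 0.949 in mKO (0.754 to 1.32) and 0.639 in mTG (0.559 to 0.747), so mTG lay below all WT libraries. Col22a1, found where muscle joins tendon, fell in mTG (-0.30), a call lost for 7 of 35 libraries left out in turn. Its medians fell from 1.69 (1.44 to 2.05) to 1.17 scaled TPM (0.998 to 1.65) in mTG, beside 1.61 (1.41 to 2.4) and 1.30 (1.24 to 1.83) in WT. Col16a1 and Col20a1 were not called in any comparison, and Col16a1 spread widely within groups, from 0.319 to 2.56 scaled TPM among the 6 mKO libraries at 24 months.

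Col15a1, a multiplexin that lies on the basement membrane of muscle and capillaries, fell in WT (-1.07), mKO (-0.73) and mTG (-0.80). Its WT libraries ran from 8.48 to 14.0 scaled TPM at 3 months and from 3.76 to 5.53 at 24 months. The mKO libraries held 7.999, 9.91, 12.1, 12.4 and 12.4 at 3 months and 5.25 to 6.91 at 24 months. Its mTG libraries ran from 9.54 to 16.2 and from 5.84 to 7.68, so at 24 months mTG lay above WT (0.36, adjusted p = 0.00978, but -0.09 on unscaled TPM). Col18a1, the other multiplexin and the source of endostatin, fell by 0.29, 0.25 and 0.26, from 1.15 to 1.69 scaled TPM to 0.812 to 1.03 in WT and from 1.23 to 1.85 to 0.942 to 1.22 in mTG, in mKO with 1 high library at 24 months (1.54 scaled TPM beside 0.818 to 1.07 in the others) and with the call lost for 7 of 35 libraries left out in turn.

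Col7a1, the chain of the anchoring fibrils under epithelia, was the only member called higher with age, and only in mTG. Its medians were 10.05 scaled TPM in WT at 3 months (8.05 to 12.6) and 11.4 at 24 months (8.37 to 18.4). In mTG it was at 9.96 (7.61 to 12.7) and 13.7 (13.0 to 26.0), without overlap of the ages. Among mKO libraries those at 3 months held 10.2, 11.6, 13.0, 13.6 and 18.1, and those at 24 months 11.7 to 14.8 (14.2). The change in mTG was 0.65 ± 0.16 (adjusted p = 0.00544), set beside 0.21 in WT (0.364) and 0.07 in mKO (0.834), and the difference from the WT change was not called (0.44, adjusted p = 0.293). At 24 months 2 of the 6 mTG libraries stood high, and mTG was 0.44 above WT (0.0203), but -0.05 on unscaled TPM. The highest mTG value (26.0) and the highest mKO value at 3 months (18.1) came from the 2 libraries that an earlier look found apart. With the rRNA covariate the change with age in mTG was 0.67 and not called (limma adjusted p = 0.276).

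**Figure D3:**
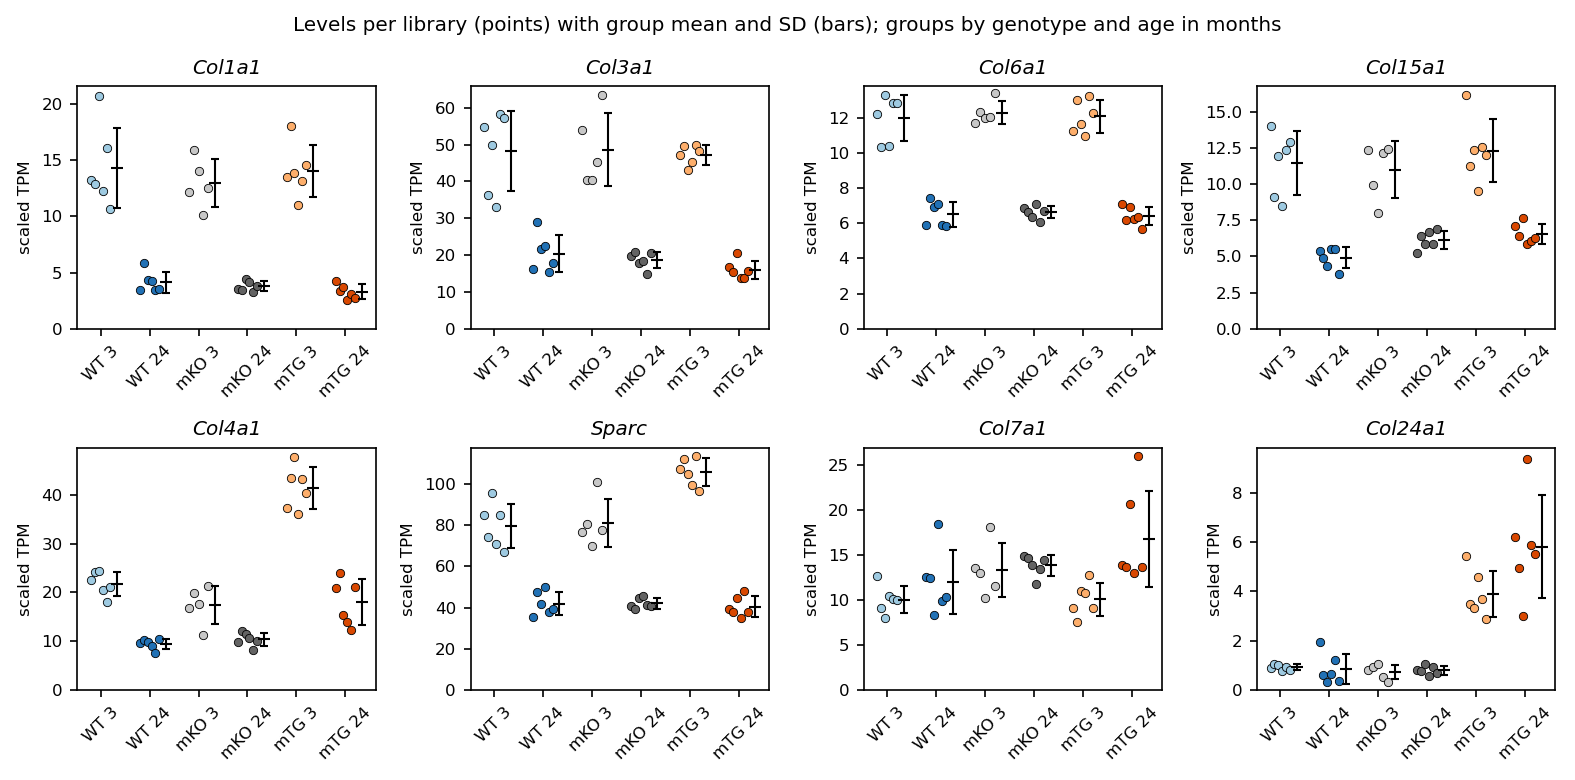
Scaled TPM per library (points) with group mean and SD (bars) for 8 members, by genotype and age in months. Col1a1, Col3a1, Col6a1, Col15a1 and Sparc are lower at 24 months in every genotype, Col4a1 also starts higher in mTG, and Col7a1 and Col24a1 are not called lower with age.

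Summed by class over all chains in the table, tested or not, the 11 fibrillar chains held 83.0 to 125.5 scaled TPM in WT at 3 months and 37.4 to 58.8 at 24 months, and in mTG 94.5 to 122 and 36.7 to 44.3. The 6 type IV chains held 29.3 to 36.3 and 14.8 to 17.7 in WT, and 54.6 to 63.9 and 19.8 to 34.1 in mTG. The 6 type VI chains held 29.2 to 37.8 and 16.1 to 21.1 in WT, and 32.1 to 37.6 and 16.8 to 22.2 in mTG. As a share of all chain transcripts, which no scaling changes, fibrillar chains, with no overlap of the ages, went from 51% ± 2.7 (SD) to 41.6% ± 3.1 in WT, from 51% ± 1.8 to 38.3% ± 0.96 in mKO and from 45.5% ± 2.0 to 34.7% ± 2.5 in mTG. Type IV held 16.2% ± 2.2 and 16.1% ± 1.9 in WT, 13.5% ± 2.0 and 15.8% ± 0.93 in mKO, and 25.5% ± 1.1 and 23.1% ± 4.6 in mTG. The chain pool at 24 months was thus smaller in all genotypes and held a lower share of fibrillar chains, and the mTG pool held more type IV than the WT pool on average, without overlap at 3 months (24% to 27% against 13.2% to 19.5%) and with overlap at 24 months (17.3% to 28.2% against 13.8% to 18.1%).

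**Figure D4:**
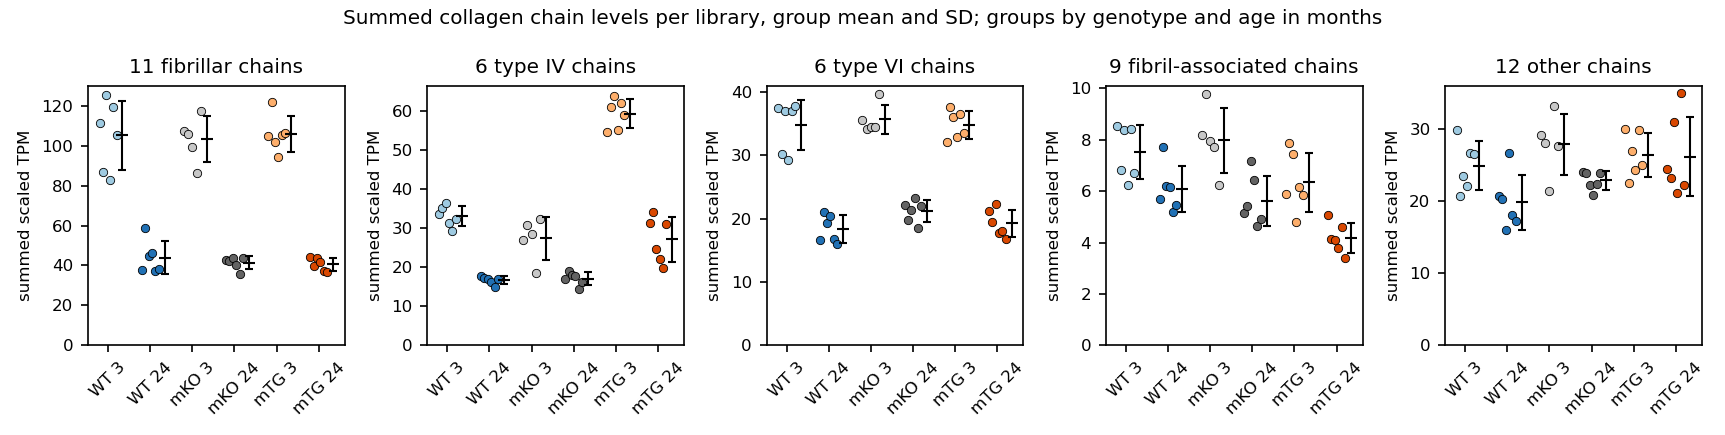
Summed scaled TPM per library (points) with group mean and SD (bars) for 5 classes of collagen chain, by genotype and age in months. Fibrillar and type VI sums at 24 months lie below those at 3 months in every genotype, type IV sums do so in WT and mTG, and type IV stands higher in mTG than in WT at both ages on this scale.

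The processing genes fell with the chains in part. P4ha1 and P4ha2, catalytic subunits of prolyl hydroxylase, fell in WT by 0.60 and 0.50 (adjusted p = 0.000579 and 6.48e-05). In mKO their changes were -0.31 and -0.21 (0.116 and 0.127), and in mTG -0.35 and -0.32 (0.0526 and 0.0115). P4ha1 was lower in mTG than in WT at both ages (-0.69 and -0.44, adjusted p = 2.2e-05 and 0.00364), with medians of 12.1 (8.75 to 14.9) against 7.14 (5.07 to 9.52) scaled TPM at 3 months and 7.72 (6.29 to 8.43) against 5.39 (4.48 to 6.19) at 24 months. In mKO P4ha1 lay at 8.46 to 10.9 scaled TPM at 3 months and 7.51 to 8.15 at 24 months. P4ha2 had medians of 10.2 (9.17 to 12.4) and 7.02 scaled TPM (6.34 to 8.11) at 3 and 24 months in WT, 9.26 (8.35 to 9.47) and 7.45 (7.32 to 8.62) in mKO, and 11.4 (8.98 to 13.99) and 8.97 (8.04 to 9.87) in mTG. P4ha2 was higher in mTG at 24 months (0.29, adjusted p = 0.00621), and -0.18 on unscaled TPM, so the direction rests on the scaling.

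Of the lysyl hydroxylases, which mark lysines for cross-links, Plod1 fell in all genotypes (-0.21, -0.24 and -0.41), and Plod2 in mTG (-0.21), a call lost for 8 of 35 libraries left out in turn. Plod3, which also adds glucose, was not called in any comparison. Plod1 lay at 5.76 to 8.13 scaled TPM in WT at 3 months and 4.77 to 6.29 at 24 months, at 5.76 to 6.69 and 4.52 to 5.52 in mKO, and at 7.04 to 8.47 and 4.97 to 6.41 in mTG. The WT call of Plod1 was lost for 3 of 35 libraries left out in turn, and its value there was 0.07 once the rRNA covariate was added. Among the lysyl oxidases, which form the cross-links, Loxl2 fell in all genotypes (-0.53, -0.44 and -0.73). Lox fell in mTG by 0.35 (adjusted p = 0.0488), a call lost for 25 of 35 libraries left out in turn. Loxl2 had medians of 2.46 (2.32 to 3.02) and 1.52 scaled TPM (1.14 to 1.88) at 3 and 24 months in WT, 2.39 (1.4 to 2.82) and 1.46 (0.972 to 1.78) in mKO, and 2.37 (2.22 to 2.89) and 1.05 (0.928 to 1.29) in mTG. Lox had 1.81 (1.08 to 2.2) and 1.54 (1.21 to 1.999) in WT, 1.92 (0.877 to 2.56) and 1.1 (0.954 to 1.55) in mKO, and 1.96 (1.39 to 2.38) and 1.27 (0.988 to 1.82) in mTG, so its ages overlapped in each genotype. Loxl1 was lower in mTG than in WT at 24 months, at 1.06 to 1.91 against 2.19 to 2.80 scaled TPM (-0.43, adjusted p = 0.00029). At 3 months Loxl1 lay at 2.19 to 2.92 in WT, 2.07 to 4.29 in mKO and 1.9 to 2.68 in mTG, and in mKO at 24 months at 2.68 to 3.54.

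Serpinh1 (HSP47, ENSMUSG00000070436, chromosome 7, 99345376 to 99353239, minus strand) is the chaperone dedicated to collagen. Its medians went from 21.9 (16.8 to 27.1) to 11.1 scaled TPM (9.73 to 14.9) in WT and from 27.3 (15.8 to 37.0) to 11.7 (9.81 to 12.7) in mTG. Levels in mKO at 3 months were 13.2, 18.3, 18.4, 20.5 and 20.9, against 8.13 to 13.1 at 24 months. The age groups did not overlap in any genotype, and the changes were -0.83 ± 0.15, -0.80 ± 0.16 and -1.11 ± 0.15 (adjusted p = 0.00011, 0.000612 and 3.19e-06). Against Col1a1, Serpinh1 rose from 1.54 to 2.83 in WT, 1.40 to 2.61 in mKO and 1.85 to 3.40 in mTG (adjusted p = 0.00725 for each, exact permutation), so the chaperone fell less than its main client.

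Adamts2, which removes the amino propeptide of fibrillar procollagens, fell by 0.34, 0.44 and 0.57. Bmp1, which removes the carboxyl propeptide, was not called in any comparison (-0.16, -0.35 and -0.18 with age). Its medians were 4.27 (3.85 to 6.14) and 4.41 scaled TPM (2.995 to 4.63) at 3 and 24 months in WT, 4.45 (3.56 to 5.25) and 3.15 (2.51 to 4.25) in mKO, and 6.24 (4.07 to 7.43) and 5.37 (3.42 to 6.75) in mTG. Pcolce, which enhances that cut, fell in mKO (-0.52, adjusted p = 0.00411), with -0.20 in WT (0.226) and -0.27 in mTG (0.103). Pcolce lay at 15.98 to 29.6 scaled TPM in mKO at 3 months and 12.2 to 14.9 at 24 months, at 16.2 to 23.5 and 14.8 to 19.3 in WT, and at 17.95 to 24.9 and 14.2 to 24.5 in mTG, so only in mKO were the ages apart. Pcolce overlaps Fbxo24 on the same strand in the annotation, and Plod3 and Col18a1 overlap Znhit1 and Slc19a1 on the other strand. No source used here states strand, so reads in these overlaps cannot be told apart.

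Sparc (ENSMUSG00000018593, chromosome 11, 55394500 to 55423183, minus strand), a secreted protein that binds fibrillar and type IV collagen, was the most abundant member per length. Its medians were 79.4 scaled TPM in WT at 3 months (66.9 to 95.3) and 40.4 at 24 months (35.6 to 49.7). In mTG they were 106 (96.2 to 113.5) and 38.6 (34.97 to 48.3). The 5 mKO libraries at 3 months held 69.7, 76.5, 77.7, 80.5 and 100.5, against 39.2 to 45.8 at 24 months. At 3 months all mTG libraries were above all WT libraries, and at 24 months the genotypes overlapped.

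Sparc fell by 0.91 ± 0.09 in WT, 0.92 ± 0.10 in mKO and 1.37 ± 0.09 in mTG (log2, adjusted p = 6.84e-09, 2.13e-08 and 3.22e-12). The fall in mTG exceeded that in WT by 0.46 ± 0.13 (interaction -0.46, adjusted p = 0.0392), the only member called in either interaction, where 1.72% of all genes were called lower in mTG. The call ended on unscaled TPM (-0.18), with the rRNA covariate (-0.52), and for 13 of 35 libraries left out in turn. Sparc was 0.41 higher in mTG than in WT at 3 months (adjusted p = 0.000383) on scaled TPM but -0.39 on unscaled TPM, both called, so its direction depends on the scaling. Against Col1a1 in the same library it was higher in mTG at 3 months, at 7.54 against 5.63 (0.42, exact permutation, adjusted p = 0.0179).

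The knockout was set against WT to ask whether losing PGC-1α changes collagen expression at each age. At 3 months 0 members were called higher and 0 lower by limma, while 1.79% of all genes were higher and 3.27% lower. At an unadjusted p under 0.05, 3 members were higher and 2 lower. The largest difference was 0.36, and the median 95% interval reached 0.21 to either side. Col1a1 differed by -0.11 (95% interval -0.39 to 0.16), Col3a1 by 0.02 (-0.28 to 0.32) and Col4a1 by -0.33 (-0.62 to -0.05, adjusted p = 0.166). At 24 months Col6a3 and Col11a2 were higher and Col14a1 was lower, 2 and 1 of 34 beside 10.4% and 12.2% of all genes. The call of Col11a2 was lost for 4 of 35 libraries left out in turn. In the same comparison 7 of 10 fibroblast markers were lower (0 on unscaled TPM), and of 5 tendon markers 3 were lower and 1 higher on either scale, and their part in these differences was not tested. On unscaled TPM 17 members were higher and 0 lower, beside 51.3% and 2.77% of all genes, so most of that count goes with the shift of the median gene. In the difference of the age effect between mKO and WT, 0 members were called higher and 0 lower (2.48% and 1.89% of all genes), with 4 and 1 at an unadjusted p under 0.05. On unscaled TPM 7 were higher in that interaction, beside 24.2% of all genes.

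The transgenic line was set against WT to ask what raised PGC-1α does at each age. At 3 months Col4a1, Col4a2, Col24a1, Plod1 and Sparc were higher and P4ha1 and Col14a1 lower, 5 and 2 of 34 beside 22.3% and 21.4% of all genes. At 24 months Col4a1, Col4a2, Col24a1, Col7a1, Col15a1 and P4ha2 were higher and Col5a2, Col11a2, Col14a1, P4ha1, Loxl1 and Loxl2 lower, 6 and 6 beside 24% and 23.9%. On unscaled TPM the counts were 1 higher and 30 lower at 3 months, beside 3.77% and 77.2% of all genes, and 1 higher and 25 lower at 24 months, beside 6.85% and 62.2%. Calls lost when libraries were left out in turn were those of Plod1 (3 of 35) and Col14a1 (1) at 3 months and of Loxl2 (5), Col5a2 (3) and Col7a1 (3) at 24 months. Of 10 fibroblast markers 1 was higher and 3 lower at 3 months and 6 were lower at 24 months, and 10 were lower at each age without scaling. Of 5 tendon markers 2 were lower at 24 months, and 4 without scaling, and the part of both lists in these differences was not tested. Col24a1 was the member higher under both scales. Plod1 turned from 0.18 to -0.52 at 3 months without scaling, called both ways. For the major fibrillar chains the differences were small on scaled TPM, with Col1a1 at -0.01 (95% interval -0.28 to 0.25) and Col3a1 at 0.00 (-0.29 to 0.28) at 3 months, and at -0.25 (-0.52 to 0.01) and -0.32 (-0.60 to -0.03, adjusted p = 0.0603) at 24 months. In the difference of the age effect between mTG and WT, 0 members were called higher and 1, Sparc, lower, beside 1.77% and 1.72% of all genes. At an unadjusted p under 0.05, 1 member was higher and 7 were lower. On unscaled TPM 5 were called higher and 0 lower, with 17.2% of all genes higher. Comparisons of mKO and mTG with WT share the WT libraries of their age.

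Markers of the cells that make collagen did not all move as the chains did. Of 10 markers of fibroblasts and fibro-adipogenic progenitors, 3 fell with age in WT, 8 in mKO and 4 in mTG, with medians of -0.03, -0.55 and -0.32, and none rose. On unscaled TPM 6, 7 and 4 fell, with medians of -0.315, -0.531 and -0.314, so the WT count rests on the scaling. Of all genes 11.3%, 4.96% and 7.46% fell on scaled TPM, and 43.7%, 3.49% and 2.83% on unscaled TPM. Pdgfra, the receptor that defines these progenitors, was at a median of 3.17 scaled TPM in WT at 3 months (2.75 to 3.78) and 3.07 at 24 months (2.75 to 3.51), and changed by -0.04 (95% interval -0.22 to 0.15). That change is for WT on scaled TPM alone and does not stand for the list. Over the 10 markers, changes on scaled TPM ran from -0.616 to 0.055 in WT, -1.126 to -0.115 in mKO and -0.796 to 0.02 in mTG. Within libraries Col1a1 fell against Pdgfra from 4.27 to 1.30 in WT, 4.04 to 1.33 in mKO and 5.02 to 1.5 in mTG, with no overlap of the ages (-1.72, -1.61 and -1.74 on log2, exact permutation, adjusted p = 0.00725 for each). Dcn, the fibroblast proteoglycan decorin that coats collagen fibrils, was at 203 scaled TPM in WT at 3 months (164 to 232) and 238 at 24 months (215.5 to 272). On scaled TPM it rose in WT (0.25), fell in mKO (-0.30) and was not called in mTG (-0.05), while on unscaled TPM it was called in none of them (-0.05, -0.28 and -0.07). The ratio of Col1a1 to Dcn went from 0.070 to 0.017 in WT, 0.057 to 0.021 in mKO and 0.081 to 0.020 in mTG, again with no overlap (-2.01, -1.45 and -2.0, exact permutation, adjusted p = 0.00725 for each).

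Of the 5 tested of 6 tendon cell markers, 0 fell in WT, 4 in mKO and 2 in mTG (3, 4 and 2 on unscaled TPM). Tnmd, a membrane protein of tendon cells, had a median of 5.33 scaled TPM in WT at 3 months (2.96 to 8.33) and 4.49 at 24 months (3.39 to 5.29), a change of -0.22 (adjusted p = 0.413). In mKO the median went from 5.83 (4.15 to 6.84) to 1.53 (1.05 to 2.70), a change of -1.27 (2.42e-05), and in mTG from 5.28 (2.83 to 6.16) to 1.73 (1.24 to 2.76), a change of -0.99 (0.000446). Of 6 muscle fibre genes, 4 fell in WT (6 on unscaled TPM) and 0 in mKO and mTG on either scale. Of 3 adipocyte markers, 2 fell in mKO and 0 in WT and mTG on either scale. Ckm, the creatine kinase of muscle, was at 15730 scaled TPM or more in WT. The part of these markers in the collagen changes was not tested.

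Lists of other genes of the collagen pathway were counted in the same fit on scaled TPM. Of all genes tested, 11.3% fell with age and 11.4% rose in WT. In mKO 4.96% fell and 6.07% rose, and in mTG 7.46% fell and 6.7% rose. On unscaled TPM 43.7% of all genes fell in WT, 3.49% in mKO and 2.83% in mTG. A count near these shares does not set a list apart from genes at large. Without scaling the WT counts with age shifted downward, to 0 higher and 9 lower for folding and secretion, 6 lower for breakdown, 2 for receptors, 5 for proteoglycans, 10 for basement membrane partners and 6 for TGF-β signalling, with 0 higher in each list. In mKO these unscaled counts of lower genes were 2, 1, 0, 5, 2 and 0, with 1 folding gene, 1 receptor and 2 signalling genes higher, and in mTG they were 2, 2, 0, 3, 4 and 1, with 0 higher. Of 17 tested of 23 further genes of collagen folding, modification and secretion, 1 rose and 5 fell with age in WT, 1 rose and 2 fell in mKO and 3 fell in mTG. P4hb, the disulphide isomerase that is the other subunit of prolyl hydroxylase, rose in WT (0.36, but 0.06 and not called without scaling), Mia3, which loads procollagen for export, fell there (-0.23), and Ppib, a prolyl isomerase, fell in mKO (-0.44). Of 10 tested of 15 genes of collagen breakdown, the proteases and their inhibitors, 1 fell in WT, 2 in mKO and 4 in mTG. The gelatinase gene Mmp2 fell in mKO (-0.61), and the inhibitor gene Timp2 fell in mTG (-0.39) and was lower there than in WT at 3 and 24 months (-0.57 and -1.03). Of 5 tested of 10 collagen receptors, 1 fell in WT, 1 rose in mKO and 2 fell in mTG, with Itgb1, the shared integrin subunit, at 0.03, -0.06 and -0.18, none called.

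Of 10 tested of 11 fibril-binding proteoglycans and glycoproteins, 1 rose and 3 fell in WT, 6 fell in mKO and 4 fell in mTG. Fmod, which guides the thickness of tendon fibrils, changed by -0.67 in WT (adjusted p = 0.051, and -0.96 and called without scaling), -1.68 in mKO and -1.12 in mTG. Of 11 laminins and other basement membrane partners, 5 fell in WT, 4 in mKO and 5 in mTG, among them Lamc1, a laminin chain, in all (-0.79, -0.41 and -0.50), with -0.39 and no call in mKO on unscaled TPM (adjusted p = 0.0531). Hspg2, the core of perlecan, fell in WT (-0.52) and was 0.32 and 0.74 higher in mTG than in WT at 3 and 24 months on scaled TPM, against -0.45 (called lower) and 0.23 (not called) on unscaled TPM. Of 13 genes of TGF-β signalling, which drives collagen genes in fibroblasts, 1 rose and 3 fell in WT, 3 rose and 1 fell in mKO and 3 fell in mTG. Smad3, its main mediator, fell in WT (-0.60) and mTG (-0.51), with -0.25 in mKO (adjusted p = 0.129), and Ccn2, a target gene, fell in WT (-0.86).

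After group means were removed, chains of the same trimer varied together over the 35 libraries, which share their scaling and library makeup. Pearson's r was 0.847 for Col1a1 and Col1a2, 0.732 for Col4a1 and Col4a2 and 0.873 for Col6a1 and Col6a2. Col3a1 ran closer to Col6a1 (0.770) than to Col1a1 (0.353), and Col1a1 ran with the tendon gene Tnmd (0.517), which Col3a1 did not (-0.208). Col4a1 and Col4a2 ran with the endothelial gene Pecam1 (0.488 and 0.621) and as closely with the fibroblast gene Pdgfra (0.558 and 0.610). Spearman's rho for these pairs was lower, at 0.321 and 0.425 with Pecam1 and 0.420 and 0.401 with Pdgfra. The libraries that stood apart are included. These are descriptions with no test.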

How the data were processed

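Bulk RNA in 35 gastrocnemius libraries from male mice in 6 groups was measured as 1 table of TPM per gene, as deposited by the authors. Per the submitters' processing notes, cutadapt 1.16, Salmon 1.1.0 and edgeR (version not given) were used with GRCm38, and their roles are not given in the sources used here. TPM totals 999999.5 to 1000000.3 per column, so depth cannot be read from the table and values carry no counting interval. Columns were tied to groups by their short names. Gene names came from GENCODE M21 (54094 IDs matched, 322 not).

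TPM columns were scaled by the median of ratios, and log2(scaled TPM + 1) of the 12399 genes with TPM of at least 1 in at least 5 libraries was fitted with limma 3.58.1 (R 4.3.3), 1 mean per group and a mean-variance trend, with Benjamini-Hochberg adjustment over all genes in each comparison. Calls are adjusted p under 0.05. Ratios of 2 transcripts used a pseudocount of 0.1 and 2-sided exact permutation tests (11 ratios, 7 comparisons, adjusted over 77 tests, 32 called), with 2 ratios added after the data were seen. On simulated data with 200 of 12399 genes changed, the fit recovered 82% at 1.5-fold and 94% at 2-fold. These folds were of scaled TPM + 1, in genes above 1 scaled TPM in WT at 3 months, with independent noise per gene. The rates need not hold for low chains or for libraries whose makeup differs. The design text speaks of biological replicates. By rule every tested member could be named, with values per library or group ranges for the up to 3 most abundant of each role and for members called in an interaction. From the other lists up to 4 of the most abundant genes were eligible. Pdgfra is named for its ratio, and Col24a1, Matn1 and the other listed cartilage and endothelial genes were given after their values were seen. The members and lists were chosen with earlier results of these data known. Alternatives are listed in the closing section.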

Additional observations from a re-analysis of the deposited data

Results flagged for a closer look

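Of 168 sets of libraries checked (24 members and 4 chain sums in 6 groups), 8 had an end library far from the others, and chance gives about 1 in 20. The highest Col1a1 and Col16a1 values of WT at 24 months were in the same library, at 5.845 scaled TPM (next 4.292) and 1.596 (next 0.913). The lowest Col4a2 of mKO at 3 months was 6.469 (next 9.257), in a library that an earlier look at these data found apart. The highest Col18a1 of mKO at 24 months was 1.538 (next 1.075), the highest Col22a1 of mTG at 24 months was 1.654 (next 1.243), and the highest Loxl1 of mTG at 3 months was 2.679 (next 1.999). The highest type VI sum of mKO at 3 months was 39.75 (next 35.5), and the lowest sum over all chains of mKO at 24 months was 95.7 (next 108.5).

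Sparc was the member whose change with age differed between mTG and WT by the test of that difference (-0.461 on the log2 scale, limma adjusted p = 0.0392), a call that several alternatives ended.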

How the results depend on the processing

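No paired analysis was possible because the data columns carry no replicate number shared between groups, so the replicate block was not run. Members lower with age stayed within 1.5 times of 21 in WT, 21 in mKO and 24 in mTG, except with the rRNA share as covariate (1 in WT, 5 in mKO), with a fold minimum of 1.5 (6, 3 and 6) and with a mean of at least 5 TPM, which tests 17 members (13 in mKO, 14 in mTG). The 1 member higher with age in mTG became 2 with the length trend removed, and 0 with the rRNA covariate or the fold minimum. The causes were not tested, apart from the fewer members tested.

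In mTG against WT at 3 months, 5 higher became 1 on unscaled TPM and 1 with the fold minimum. There 2 lower became 30 on unscaled TPM, 4 with only the groups compared or with array weights, 1 with the mean of 5 TPM, the length trend removed or the rRNA covariate, and 0 with the fold minimum. At 24 months 6 higher became 1 unscaled, 2 with the rRNA covariate and 1 with the fold minimum, and 6 lower became 25 unscaled, 1 with the mean of 5 TPM and 0 with the rRNA covariate or the fold minimum. In mKO against WT at 24 months, 2 higher became 17 unscaled, 4 with array weights, 1 with a pseudocount of 0.1, no filter, the mean of 5 TPM or the length trend removed, and 0 with the fold minimum. Its 1 lower became 0 unscaled, with the mean of 5 TPM or with the fold minimum, 3 with only the groups compared, and 2 with quantile normalization, the length trend removed, array weights or without the 2 libraries that stood apart. For the difference of the age effect from WT, 0 higher in mKO became 7 unscaled and 1 with quantile normalization, the mean of 5 TPM or array weights. In mTG 0 higher became 5 unscaled, and 1 lower became 0 unscaled, with no filter, with nuclear protein-coding genes only, with the rRNA covariate or with the fold minimum, 2 with only the groups compared, the length trend removed or array weights, and 3 with a pseudocount of 0.1 or without the 2 libraries.

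On unscaled TPM the sign turned at 3 months in mTG for Col4a2 (-0.079), Plod1 (-0.519) and Sparc (-0.385), and at 24 months for Col4a2 (-0.125), Col15a1 (-0.087), Col7a1 (-0.053) and P4ha2 (-0.184). With the rRNA covariate it turned for Plod1 with age in WT (0.07) and for Col5a2 in mTG at 24 months (0.016).

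Leaving out 1 library at a time, members lower with age ranged from 20 to 22 in WT, 19 to 21 in mKO and 20 to 28 in mTG, where 1 to 2 were higher. In mTG at 3 months 4 to 7 were higher and 1 to 3 lower, and at 24 months 5 to 7 higher and 4 to 7 lower. In mKO at 24 months 1 to 3 were higher and 1 to 2 lower. In the difference of the age effect, 0 to 1 were higher in mKO and 0 to 2 lower in mTG. Ratios called in mKO against WT ranged from 0 to 1 at each age. Depth cannot be read from TPM, so the precision of low chains is unknown.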
